A study of Arabidopsis thaliana with 8 samples.

Results

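The report covers 10 genes of Arabidopsis thaliana that take up iron at the root surface or control that uptake, out of 33201 rows in the deposited expression table. They were picked by name: IRT1, IRT2, FRO2 and F6'H1 act in uptake, and FIT, BHLH38, BHLH39, BHLH100, PYE and BTS are regulators. RNA sequencing was done on root protoplasts of Col-0 seedlings 5 days old, sorted on a WOX5::GFP reporter that marks the quiescent center (QC), the slowly dividing cells that organize the root tip's stem cells. The pan mutant gave 4 libraries and wild type gave 4, each called a biological replicate, and both genotypes carried the reporter. PAN (PERIANTHIA) is a bZIP transcription factor of the TGA class, and the mutant allele is not named in the labels. Each gene has 1 pooled value per genotype in FPKM, the number of sequenced fragments scaled to transcript length and to library size. No value per library could be used, so the spread between replicates enters only through the q-value of the authors' own test, and a gene is called here at q under 0.05.

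Arabidopsis roots obtain iron by reduction. Proton pumps acidify the soil, secreted coumarins chelate and mobilize ferric iron, the reductase FRO2 turns it into ferrous iron, and IRT1 carries that into epidermal cells. The basic helix-loop-helix (bHLH) factor FIT switches on FRO2 and IRT1 together with a partner of the BHLH38, BHLH39, BHLH100 and BHLH101 group, and the ubiquitin ligase BTS, which restrains the response, and the bHLH factor PYE are known mainly from the stele.

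The transcript of WOX5, the gene whose reporter was used for sorting, and those of other niche genes were low in the mutant cells. The authors' deposited table listed PAN itself at 0.265 FPKM in pan and 19.996 FPKM in wild type, and WOX5 at 8.27 FPKM in pan and 205 FPKM in wild type. All 8 listed QC and niche markers were called lower in pan, with a summed level of 50.5 FPKM in pan and 625 FPKM in wild type. All 12 epidermis and root hair markers were above wild type in pan and 8 were called higher, with a sum of 2722 FPKM in pan and 692 FPKM in wild type. Of 6 endodermis markers, 5 were above wild type in pan and 1 below. CASP1 was called higher and 5 were not called, with a sum of 280 FPKM in pan and 119 FPKM in wild type. None of these markers was at 0 in either genotype. In RNA pooled from sorted cells, fewer cells of a type and less RNA per cell cannot be told apart.

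The members did not move as 1 block. FIT, IRT2 and BHLH38 were called higher in pan, FRO2 was called lower, 5 were tested and not called, and IRT1 was not tested. These 3 rises and 1 fall among 9 tested members stand against 17.8% called over all 19789 tested genes, 8.01% higher and 9.83% lower. The median log2((pan + 1)/(wild type + 1)), with 1 FPKM added to each value, was 0.84 over the 9 tested members and -0.13 over all tested genes. No test of the group was made, and nothing particular to it is read from these counts.

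**Figure D1:**
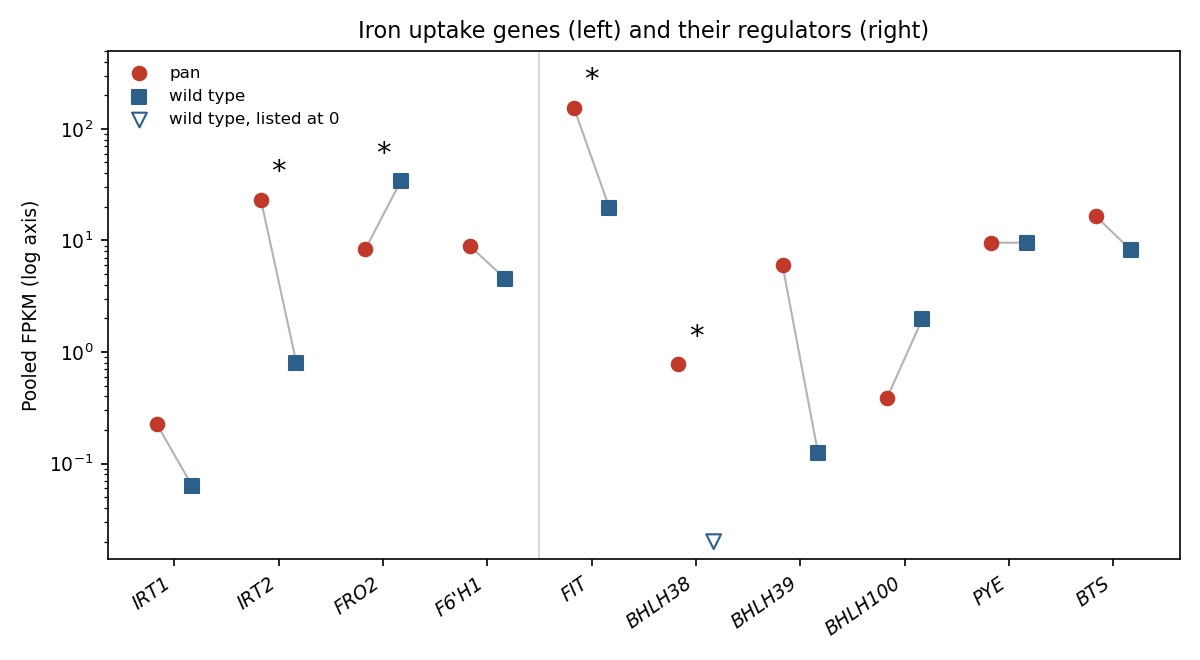
Pooled FPKM (log axis) of each member in pan (red circles) and wild type (blue squares), uptake genes left of the vertical line and regulators right of it; an asterisk marks a call and the open triangle marks a value listed at 0. FIT stands at 155 FPKM in pan and 19.7 FPKM in wild type, while FRO2 stands at 8.29 FPKM in pan and 33.9 FPKM in wild type.

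The 2 IRT transporters lie side by side and had unlike levels. IRT2 (AT4G19680, chromosome 4, 10703362 to 10704816, TAIR10), a close relative of IRT1 that is known from membranes inside root epidermal cells, had 23.2 FPKM in pan and 0.805 FPKM in wild type by the authors' deposited table. That is a 28.8-fold rise (log2 4.85, q = 0.00273), and 130 of 19590 tested genes with a finite change had a larger log2 change. IRT1 (AT4G19690, chromosome 4, 10707426 to 10709015), the main iron importer of the root epidermis, was listed at 0.228 FPKM in pan and 0.0636 FPKM in wild type and was left without a test. IRT1 was thus at a low level in both genotypes, at percentile 28.1 of rows above 0 in pan and 4.61 in wild type. The rows above 0 differ between the genotypes, so these percentiles are not a like-for-like comparison. Times its transcript length, the wild type value was 2.67 times the floor of wild type, taken as percentile 0.1 of such products above 0. The annotated genes are 2505 bases apart and share no 50-base stretch of spliced transcript.

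FRO2 (AT1G01580, chromosome 1, 209395 to 213041), the ferric-chelate reductase of the root surface, went the other way from IRT2. The authors' deposited table gave it 8.29 FPKM in pan and 33.9 FPKM in wild type, a 4.09-fold fall (log2 -2.03, q = 0.00116). It was the most abundant member in wild type and only the sixth in pan. Its tandem neighbor FRO1 was listed at 0.0343 FPKM in pan and 0.107 FPKM in wild type and was not tested. F6'H1 (AT3G13610, chromosome 3, 4449374 to 4452624) encodes the feruloyl-CoA hydroxylase that opens the route to scopoletin and other secreted coumarins. Its deposited level was 8.96 FPKM in pan and 4.55 FPKM in wild type, which was not called (log2 0.98, q = 0.512). The table gives the same locus to AT3G13620, which RefSeq places on the opposite strand with 67 bases of overlap. That neighbor was at 3.98 FPKM in pan and 25.7 FPKM in wild type (q = 0.0186 in the authors' deposited table). Whether counting kept the strands apart is not stated, so the F6'H1 level is uncertain.

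FIT (AT2G28160, chromosome 2, 12004708 to 12006122), the factor without which roots fail to induce the uptake genes, was the most abundant member in pan. The authors' deposited table gave it 155 FPKM in pan and 19.7 FPKM in wild type, a 7.86-fold rise (log2 2.97, q = 0.00116). In pan this was above 95.9% of the rows with a value over 0, and in wild type above 70.0%. Those rows differ between the genotypes, so the 2 shares are not a like-for-like change in rank. PYE, at nearly the same FPKM in both, was at percentile 67.2 in pan and 55.4 in wild type. FIT and FRO2, a well-known target of FIT, were thus both called, in opposite directions.

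The FIT partners were scarce beside FIT, per length, in both genotypes. BHLH38 (AT3G56970, chromosome 3, 21084110 to 21085150) was at 0.776 FPKM in pan and listed at 0 in wild type (q = 0.00202 by the authors' deposited table), so it has no fold change. Of 185 tested genes listed at 0 in wild type, 154 (83.2%) were called higher, so a call is the usual outcome for such a gene. RefSeq extends BHLH38 over 386 bases of AT3G56960 on the opposite strand, which holds 32.6% of its 50-base stretches, although the loci in the table do not overlap. AT3G56960 itself was untested, at 0.355 FPKM in pan and 0.306 FPKM in wild type. BHLH39 (AT3G56980, chromosome 3, 21086546 to 21087494) lies 1144 bases away and was at 5.98 FPKM in pan and 0.125 FPKM in wild type. Its 47.9-fold difference (log2 5.58) was the largest finite one of the members without a pseudocount, and the authors' test did not call it (q = 0.304). With 1 FPKM added its log2 change was 2.63, below the 3.74 of IRT2 and the 2.91 of FIT. The wild type value was 4.31 times the floor. Among 111 tested genes with a finite log2 change of at least 5, 23 (20.7%) were called. BHLH100 (AT2G41240, chromosome 2, 17198282 to 17199320) was at 0.385 FPKM in pan and 1.98 FPKM in wild type, the opposite order, and was not called (log2 -2.36, q = 0.555 by the authors' deposited table). The fourth member of this bHLH group, BHLH101, was untested at 0.702 FPKM in pan and 0.0649 FPKM in wild type.

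PYE and BTS, the pair known from the stele, were not called. PYE (AT3G47640, chromosome 3, 17567126 to 17569385), a repressor of several iron transport genes, was at 9.53 FPKM in pan and 9.54 FPKM in wild type (q = 0.999 in the authors' deposited table), the smallest difference among the members. BTS (AT3G18290, chromosome 3, 6273995 to 6280510), a RING ligase that marks bHLH factors of the pathway for breakdown, was at 16.6 FPKM in pan and 8.17 FPKM in wild type (log2 1.02, q = 0.101 by the authors' deposited table). Of the 8 listed stele markers, 4 were called lower and WOL was called higher. The list summed to 91.1 FPKM in pan and 254 FPKM in wild type, but single genes carry these sums. MP was at 15.2 FPKM in pan and 181 FPKM in wild type, most of the wild type sum. WOL was at 70.8 FPKM in pan and 28.1 FPKM in wild type, most of the pan sum. The part of these markers in the levels of PYE and BTS was not tested.

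**Figure D2:**
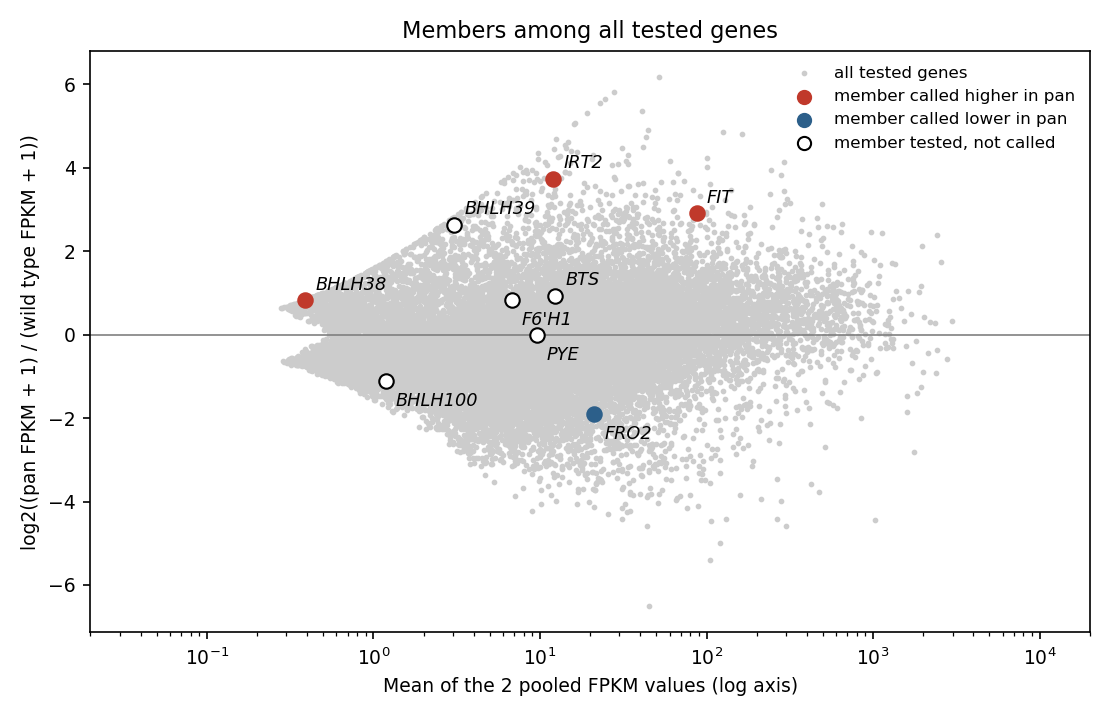
Each tested gene by the mean of its pan and wild type FPKM (log axis) and its log2 change with 1 FPKM added (vertical axis), with the 9 tested members enlarged. IRT2 (3.74) and FIT (2.91) lie toward the upper edge of genes of like level, FRO2 (-1.91) lies below 0, and PYE lies at 0.

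The G-box, a DNA element that bHLH factors bind, stood upstream of some members. The sequences below are the 300 bases before the RefSeq gene start (TAIR10.1), read 5′ to 3′ on the gene's own strand. They are shown for the bHLH partners and BTS, which carry most of the matches, and for FIT and IRT2, which rose. Capitals mark matches to the E-box CANNTG on either strand, of which the G-box CACGTG is 1 form. TGACG, the core bound by TGA-type factors such as PAN, was searched on both strands as well and was not found in these 6 windows.
BHLH38 (chr3:21085246-21085545, minus strand): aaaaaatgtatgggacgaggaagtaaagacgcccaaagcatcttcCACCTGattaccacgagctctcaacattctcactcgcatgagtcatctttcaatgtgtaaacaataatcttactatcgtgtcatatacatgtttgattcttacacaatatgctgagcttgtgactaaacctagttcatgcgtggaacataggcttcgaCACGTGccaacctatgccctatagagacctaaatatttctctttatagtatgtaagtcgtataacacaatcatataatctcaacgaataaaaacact
BHLH39 (chr3:21087711-21088010, minus strand): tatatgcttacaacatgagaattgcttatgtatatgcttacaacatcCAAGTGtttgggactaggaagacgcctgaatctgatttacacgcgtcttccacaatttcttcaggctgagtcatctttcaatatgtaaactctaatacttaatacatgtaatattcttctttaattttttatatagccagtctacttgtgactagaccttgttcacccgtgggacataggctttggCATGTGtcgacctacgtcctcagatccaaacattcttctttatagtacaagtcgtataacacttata
BHLH100 (chr2:17199455-17199754, minus strand): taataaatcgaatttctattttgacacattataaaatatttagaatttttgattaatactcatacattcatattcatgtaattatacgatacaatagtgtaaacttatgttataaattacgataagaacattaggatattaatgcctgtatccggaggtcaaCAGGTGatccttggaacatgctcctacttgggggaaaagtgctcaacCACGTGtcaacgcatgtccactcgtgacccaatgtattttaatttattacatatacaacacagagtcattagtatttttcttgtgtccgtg
BTS (chr3:6273666-6273965, plus strand): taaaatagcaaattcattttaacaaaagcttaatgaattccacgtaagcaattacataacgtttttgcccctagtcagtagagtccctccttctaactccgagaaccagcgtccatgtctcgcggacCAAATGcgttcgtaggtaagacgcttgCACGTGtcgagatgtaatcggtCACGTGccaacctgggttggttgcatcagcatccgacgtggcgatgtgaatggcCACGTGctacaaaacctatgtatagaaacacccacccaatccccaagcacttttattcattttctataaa
FIT (chr2:12004358-12004657, plus strand): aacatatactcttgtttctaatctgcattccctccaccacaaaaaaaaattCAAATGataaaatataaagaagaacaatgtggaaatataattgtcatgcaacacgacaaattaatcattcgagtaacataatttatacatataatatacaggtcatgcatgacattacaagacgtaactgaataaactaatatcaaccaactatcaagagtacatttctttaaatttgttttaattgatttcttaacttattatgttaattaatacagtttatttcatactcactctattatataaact
IRT2 (chr4:10703048-10703347, plus strand): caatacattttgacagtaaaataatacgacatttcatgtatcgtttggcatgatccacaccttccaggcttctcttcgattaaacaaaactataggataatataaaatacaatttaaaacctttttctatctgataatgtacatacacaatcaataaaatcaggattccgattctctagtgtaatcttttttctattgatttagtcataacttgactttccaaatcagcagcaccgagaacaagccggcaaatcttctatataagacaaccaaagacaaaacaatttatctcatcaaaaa

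Among all 10 members, CACGTG was found in the windows of BHLH38, BHLH100 and BTS, against 7.09% of 27437 windows of nuclear protein-coding genes. BTS held 3 copies, beginning 146, 124 and 70 bases before the gene start. BHLH38 and BHLH100 held 1 each, beginning 97 and 91 bases before it, and BHLH39 held the related CATGTG at 67 bases. CANNTG was found in 6 of 10 members and in 61.9% of all windows, and overlaps every CACGTG by construction. TGACG was found in PYE alone of the members, against 21.3% of all windows. The windows of IRT1, IRT2 and FRO2 held none of these motifs. A match is a description of the letters and says nothing of binding in these cells. The 3 members with a G-box had unlike outcomes, with BHLH38 called higher, and BTS and BHLH100 not called on opposite sides of wild type.

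**Figure D3:**
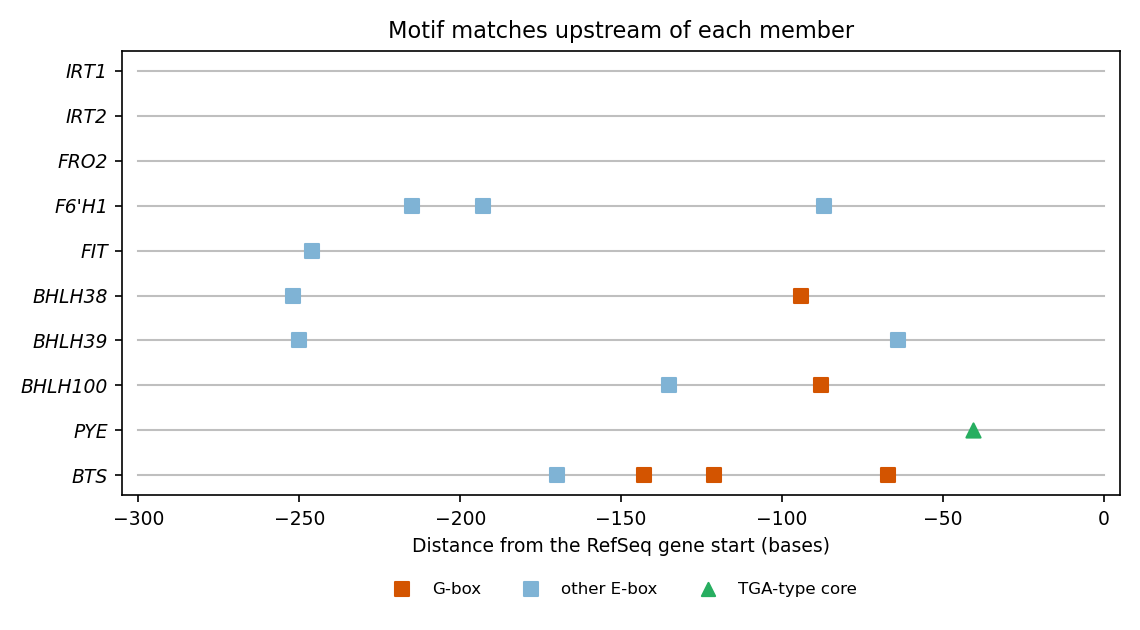
Motif matches in the 300 bases before the gene start of each member; the horizontal axis is the distance from the start in bases, orange squares are G-boxes, blue squares other E-boxes and the green triangle a TGA-type core. BTS has 3 G-boxes, and IRT1, IRT2 and FRO2 have no match.

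Among other genes listed with uptake and coumarin secretion, the called ones were all higher in pan. The list is mixed: it also holds FRO3 and other relatives of FRO2, and the MYB factors MYB10 and MYB72. Of 21 listed, 12 were tested, 6 were called higher in pan and 0 lower, against 8.01% higher and 9.83% lower over all tested genes. The median log2 change of the 12 with 1 FPKM added was 0.97 (-0.13 over all tested genes), but it was 0.20 over all 21 listed. No test of the list was made. The proton pump AHA7 was at 87.1 FPKM in pan and 1.94 FPKM in wild type (log2 5.49, q = 0.00116), and the main root pump AHA2 at 805 FPKM in pan and 185 FPKM in wild type (log2 2.12, q = 0.00116), both in the authors' deposited table. FRO3, a reductase of the mitochondrial membrane that PYE represses, rose to 27.7 FPKM in pan, against 3.13 FPKM in wild type (log2 3.15, q = 0.00116 in the authors' deposited table). F6'H2, the relative of F6'H1, was at 45.5 FPKM in pan and 8.71 FPKM in wild type (log2 2.39, q = 0.0154 by the authors' deposited table). The coumarin exporter PDR9 stood at 158 FPKM in pan and 79.8 FPKM in wild type (q = 0.0107), and the transporter IRT3 at 10.3 FPKM in pan and 2.03 FPKM in wild type (q = 0.0449 in the authors' deposited table). Beside these rises stood the epidermis and root hair markers, with a sum of 2722 FPKM in pan and 692 FPKM in wild type. The endodermis markers summed to 280 FPKM in pan and 119 FPKM in wild type, 5 of them above wild type and 1 below. AHA7 shares its locus in the table with AT3G60328, an overlapping gene, so its value is uncertain. The part of these markers in the levels of FIT, IRT2 and these genes was not tested.

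**Figure D4:**
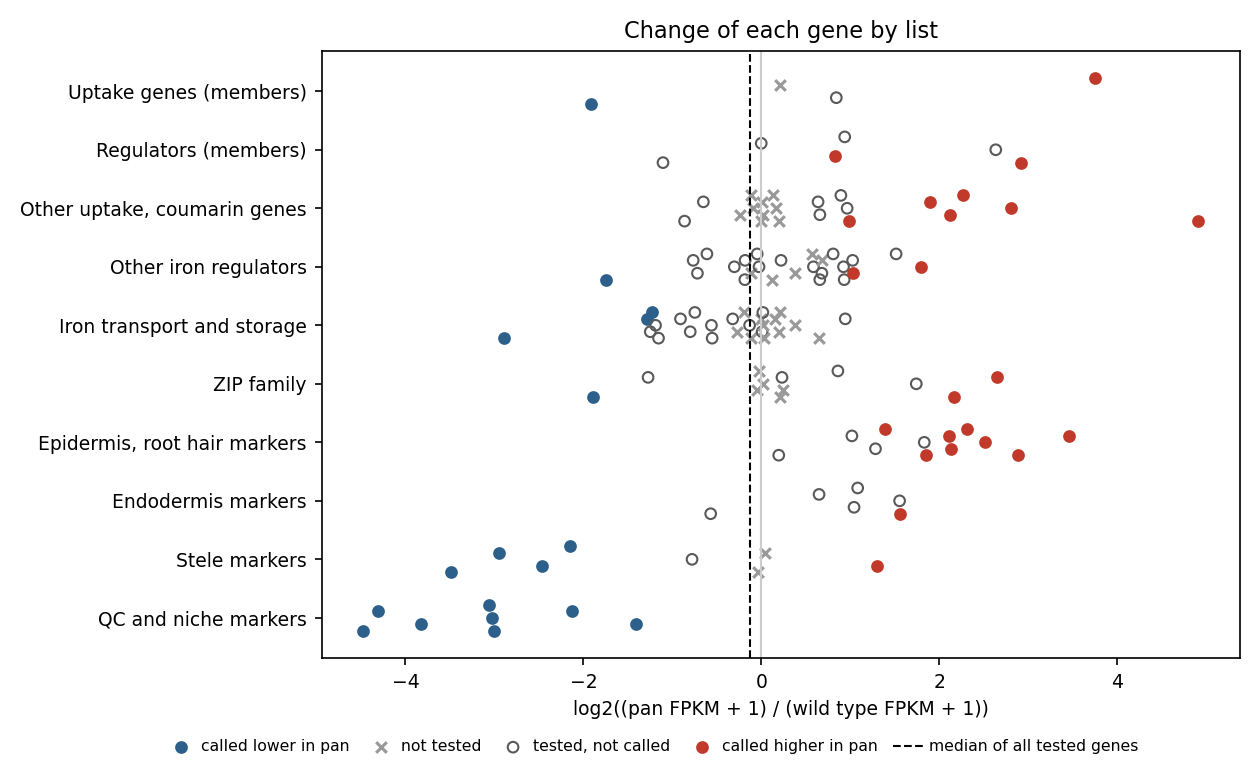
Log2 change with 1 FPKM added (horizontal axis) for each gene of the members, the wider iron and ZIP lists and the cell type markers; filled points are calls, open circles tested genes without a call and crosses untested genes, and the dashed line is the median of all tested genes (-0.13). Called genes of the other uptake and coumarin genes lie to the right and called iron transport and storage genes to the left; points are spread vertically only to separate them.

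Among regulators beyond the members, BHLH115 and IMA3 were called higher and BHLH34 lower. Of 25 listed, 20 were tested, so these 3 calls are a share close to the 17.8% over all tested genes, and 17 were not called. BHLH115, which activates the BHLH38 group and is a target of BTS, was at 65.2 FPKM in pan and 18.2 FPKM in wild type (log2 1.84, q = 0.00855), while its relative BHLH34 was at 2.83 FPKM in pan and 11.9 FPKM in wild type (log2 -2.07, q = 0.0499), both in the authors' deposited table. BHLH115 shares its table locus with AT1G51080, so its value is uncertain, although it shares no 50-base stretch of spliced transcript with another gene. IMA3 is a short peptide that signals iron shortage. It was at 1.05 FPKM in pan and listed at 0 in wild type (q = 0.0143 in the authors' deposited table). Its locus overlaps AT2G30760 and AT2G30770 on the other strand, and it shares 16% of its 50-base stretches with them. IMA3 also shares its table locus with AT2G30760, so its value is uncertain. As with BHLH38, a call is the usual outcome for a tested gene listed at 0 in wild type (83.2% called higher). ILR3 and BHLH104, other factors of the BHLH115 clade, were at 79.9 and 29.6 FPKM in pan and at 50.3 and 25.2 FPKM in wild type, without a call. ILR3 shares its table locus with AT5G54690, so the ILR3 value is uncertain as well.

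Among genes that move iron onward or store it, OPT3, NRAMP1 and FER1 were called lower in pan. Of 27 listed, 16 were tested, 3 were called lower, 0 higher and 13 were not called, against 9.83% lower, 8.01% higher and 17.8% in either direction over all tested genes. The median log2 change with 1 FPKM added was -0.77 over the 16 tested and -0.19 over all 27 listed, and it was -0.13 over all tested genes. The share called is near that of all genes and is not read as a result about the list. Beside these falls, 4 of 6 tested stele markers were called lower and 1 was called higher. The sum over the stele list was 91.1 FPKM in pan and 254 FPKM in wild type. MP alone, at 181 FPKM, was most of the wild type sum, and WOL alone, at 70.8 FPKM, most of the pan sum. All 8 QC and niche markers were lower, with a sum of 50.5 FPKM in pan and 625 FPKM in wild type. The part of these markers was not tested. OPT3, which loads iron into the phloem, fell to 3.46 FPKM in pan, against 32.1 FPKM in wild type (log2 -3.21, q = 0.00116 in the authors' deposited table). NRAMP1, a manganese and iron importer of the root, was at 104 FPKM in pan and 255 FPKM in wild type (log2 -1.29, q = 0.0215), and the iron store ferritin FER1 at 23.8 FPKM in pan and 57.4 FPKM in wild type (log2 -1.27, q = 0.0293), both in the authors' deposited table. FER1 shares its locus in the table with AT5G01595 and NRAMP1 overlaps AT1G80820 in RefSeq, each on the opposite strand, so these values are uncertain. FER1 shares no 50-base stretch of spliced transcript with another gene, and NRAMP1 shares 3.5% of its stretches. FER3, the most abundant ferritin in both genotypes, was at 181 FPKM in pan and 180 FPKM in wild type, without a call. Of the targets that PYE is known to repress, NAS4 was at 0.0805 FPKM in pan and 1.46 FPKM in wild type and ZIF1 at 1.12 FPKM in pan and 4.05 FPKM in wild type, neither of them called, while FRO3 rose as given above.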

How the data were processed

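RNA was extracted with a micro-scale column kit and amplified as cDNA before library preparation, per the labels' protocols; neither kit is stated to keep strand. TopHat2 2.0.13, Cufflinks 2.1.1 and Cuffdiff with TAIR10 are named in the submitters' processing notes, without roles or settings. The authors deposited 1 table in the layout of a Cuffdiff gene comparison, with 1 pooled FPKM value per genotype, the log2 change of pan over wild type without a pseudocount, a test score (not used), and a p-value and q-value per tested gene. Adjusting the deposited p-values of the 19789 tested genes by Benjamini-Hochberg gave the deposited q-values within 5.25e-07. The smallest p-value, 5e-05, is shared by 853 called genes.

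No values per library were used, so no SD, SE or n accompanies a level, and the planned linear model, omission of libraries and replicate block were not run. The files hold no read totals, so depth is unknown. FPKM times transcript length in kilobases had a floor (percentile 0.1 of values above 0) of 0.00349 in pan and 0.0352 in wild type, so low levels are resolved less finely in wild type. The members and lists were chosen with earlier results of these data known. All members are named, and from each wider list every called gene; others were picked as relatives or known targets after their values were seen. Symbols come from RefSeq (TAIR10.1); 32217 of 32218 rows matched by name overlap the RefSeq gene of that name, and table coordinates are TAIR10, 1-based. Upstream windows and shared 50-base stretches were read from the RefSeq genome. Code was checked on simulated data, and Python 3.11.15 with pandas 2.3.3 was used.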

Additional observations from a re-analysis of the deposited data

Results flagged for a closer look

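Among the 30 members of the wider iron and ZIP lists that were left without a test, 10 were above 0 in pan and listed at 0 in wild type, and 0 showed the reverse; these genes lie outside the comparison because they carry no test. The imbalance is that of the whole table: over all untested rows, 5828 were above 0 in pan with a wild type value of 0, and 180 showed the reverse, so nothing is read from the 10 about iron genes. The 10 were FRO7, MYB72, IMA1, EHB1, NAS1, FRD3, YSL1, VTL2, ZIP6 and ZIP8, at 0.00195 to 0.568 FPKM in pan. The floor of FPKM times transcript length was 10.1 times higher in wild type than in pan, and its part in this imbalance was not tested.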

How the results depend on the processing

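No paired analysis was possible because the table holds 1 pooled value per genotype, and leaving out single libraries could not be run for the same reason. The 3 members called higher and the 1 called lower at q under 0.05 were the same genes at q under 0.01 and under 0.1; with q recomputed over genes with a mean of at least 1 or 5 FPKM, BHLH38 dropped below the filter and 2 were higher. The members' median log2 change was 1.01 with a pseudocount of 0.1, 0.55 with a pseudocount of 5, 0.99 with median-of-ratios scaling (which takes the median of all tested genes, -0.17 without a pseudocount, as 0), and 0.89 over members averaging at least 1 FPKM or at least 5 FPKM. That scaling turned the PYE change to 0.15; no other member changed sign under these settings. At q under 0.01, higher calls numbered 3 for uptake and coumarin genes and 1 for other regulators, and lower calls numbered 0 for other regulators, 1 for iron transport and storage and 0 for the ZIP family. With q recomputed at a mean of at least 5 FPKM, 1 ZIP gene was higher. Under either recomputation, EIL1 and BHLH115 were the other regulators called higher, and IMA3 fell below the filter.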

Other observations

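The ZIP family includes the IRT transporters, and its other members mostly carry zinc. IRT2 and IRT3 were called higher, as given above, and the IRT genes are left out of the counts here. Among the ZIP genes proper, 3 were called. Of 12 listed ZIP genes 7 were tested, 2 were called higher and 1 lower in pan, against 8.01% higher and 9.83% lower over all tested genes; so few genes say nothing of the family as a whole. ZIP3 rose to 191 FPKM in pan, against 29.5 FPKM in wild type (log2 2.69, q = 0.00116 in the authors' deposited table). ZIP9 was at 3.49 FPKM in pan and listed at 0 in wild type (q = 0.00116), and ZIP4 fell to 2.72 FPKM in pan, against 12.8 FPKM in wild type (log2 -2.24, q = 0.0273), both in the authors' deposited table. As with BHLH38, the ZIP9 call is the usual outcome for a tested gene listed at 0 in wild type (83.2% called higher). ZIP2, the most abundant ZIP gene in wild type, was at 120 FPKM in pan and 102 FPKM in wild type and was not called. ZIP7, at 0.0430 FPKM in pan and 1.52 FPKM in wild type, was not called either.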
